A study of Mus musculus with 12 samples.

Results

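The HoxD cluster is 1 of the 4 groups of Hox genes of the mouse and holds 9 protein-coding members, Hoxd1, Hoxd3, Hoxd4, Hoxd8, Hoxd9, Hoxd10, Hoxd11, Hoxd12 and Hoxd13, which were taken by symbol from the 55573 genes of the deposited tables. The RNA came from embryonic mouse fibroblasts, made immortal with the large T antigen of SV40, as 12 libraries in 4 groups of 3. The Fadd line knockout group was Fadd -/-, Mlkl -/- with an empty vector, and the Fadd line put back group was the same genotype with ectopic Fadd. The Casp8 line knockout group was Casp8 -/-, Mlkl -/- with an empty vector, and the Casp8 line put back group was the same genotype with ectopic Casp8. All 4 groups were therefore Mlkl -/- by genotype, were untreated and were harvested 24 h after plating, with 3 independent cultures per group. Per the labels there is a Fadd line and a Casp8 line, so the genotype and the origin of the line cannot be told apart in comparisons between lines. FADD and caspase-8 are the adaptor and the protease of death receptor signalling, and MLKL is the executioner of necroptosis.

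Hox genes encode homeodomain transcription factors that give cells their position along the body axis. Within a cluster the genes lie in the order in which they act, with low numbers active early and towards the head and high numbers late and towards the tail and the tips of the limbs. Genes with the same number in different clusters are paralogues and often share functions. In the HoxD cluster, regulatory landscapes on either side drive the genes in limb and digit buds, and Polycomb complexes keep the cluster silent in cells that do not use it. Cultured fibroblasts are known to retain a Hox pattern of the body site they came from.

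The libraries held 33918359 to 59388559 counts each. Fadd was present at 0.102 ± 0.0739 CPM (a gene's counts as a share of the library's counts, scaled to 1000000) in the Fadd line knockout group and 24.5 ± 4.2 CPM in the Fadd line put back group, and Casp8 at 11.1 ± 0.8 CPM in the Casp8 line knockout group and 135 ± 58 CPM in the Casp8 line put back group (SD, n = 3 each). Transcripts of Mlkl were still counted in every group, at means of 6.16 to 11.1 CPM, and whether they were intact was not tested. Of 12 fibroblast markers, 7 or 8 averaged at least 1 TPM (the same kind of share after division by transcript length) in each group. Thy1 and Lum, a surface marker and a matrix proteoglycan of fibroblasts, had no counts in the Fadd line, and Thy1 had none in the Casp8 line put back group. Of the markers of other cell types, 0 of 7 leukocyte, 0 of 5 endothelial, 0 of 6 muscle and 0 of 3 pluripotency genes averaged 1 TPM in any group. At least 1 TPM was reached by 1 of 7 epithelial, 1 or 2 of 5 cartilage and 3 or 4 of 7 neural genes in each group. In each group replicate 1 stood apart, with an SD over genes of the log2 difference from the other libraries of 0.54 to 0.77, against 0.18 to 0.36 between replicates 2 and 3. Several levels are therefore also given without the first replicates.

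On mm10 the 9 members occupied 96833 bases, chr2:74668310-74765142, all on the plus strand, with Hoxd13 at the low-coordinate end and Hoxd1 at the other. The promoters of 3 members are shown, chosen after their values were seen. Hoxd8 held most of the counts of the cluster, Hoxd9 had all but 1 of its counts in 1 group, and Hoxd1 had no counts. The bases directly upstream of the annotated start are from RefSeq on GRCm38.p6, plus strand, with CpG dinucleotides in capitals. They cover chr2:74697513-74697726 for Hoxd9 (214 bases that end where the GENCODE gene starts), chr2:74704365-74704614 for Hoxd8 and chr2:74762730-74762979 for Hoxd1 (250 bases each).
Hoxd9: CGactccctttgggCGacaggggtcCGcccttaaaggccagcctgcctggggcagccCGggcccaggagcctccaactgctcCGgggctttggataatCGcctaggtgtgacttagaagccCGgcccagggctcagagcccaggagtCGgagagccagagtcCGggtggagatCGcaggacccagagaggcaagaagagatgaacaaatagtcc
Hoxd8: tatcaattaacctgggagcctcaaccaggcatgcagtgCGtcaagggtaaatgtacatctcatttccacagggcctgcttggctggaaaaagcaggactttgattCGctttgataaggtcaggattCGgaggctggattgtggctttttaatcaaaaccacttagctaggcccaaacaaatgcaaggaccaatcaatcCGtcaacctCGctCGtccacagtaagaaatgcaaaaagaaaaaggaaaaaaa
Hoxd1: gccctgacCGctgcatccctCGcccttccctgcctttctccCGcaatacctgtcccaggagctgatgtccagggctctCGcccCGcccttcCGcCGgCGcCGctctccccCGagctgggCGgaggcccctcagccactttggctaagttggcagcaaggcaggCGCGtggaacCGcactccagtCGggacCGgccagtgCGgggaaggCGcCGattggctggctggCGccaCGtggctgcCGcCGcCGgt
The Hoxd8 stretch held 6 CpG, which equals the median of 6 over the 250 upstream bases of 32851 mouse promoters in the RefSeq table. The Hoxd1 stretch held 24, a number reached or passed by 11.98% of those promoters, and the Hoxd9 stretch held 10. Over the full 250 bases, Hoxd13 held 31 CpG, Hoxd10 held 20, Hoxd9 held 13, Hoxd3 held 12, Hoxd12 held 10 and Hoxd4 held 3, while Hoxd11 had one listed start with 2 and another with 20. The order of the members by CpG was not that of their counts.

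HoxD transcripts were scarce in every library. The highest level of any member in any library was 0.46 TPM, and the highest count was 66. Hoxd8 in the Fadd line stood clear of the detection limit. So did Hoxd9 and Hoxd4 in the Fadd line put back group, with 46 and 30.58 counts over the group. All other group levels of the members were close to the limit or below it. The 12 libraries together held 350 HoxD counts, of which 335 were in the Fadd line and 15 in the Casp8 line. Hoxd8 made up 64.0% of them. Of the 9 members, 8 had a count in some library, and 3 (Hoxd8, Hoxd4 and Hoxd3) had counts in all 6 libraries of the Fadd line. In total 7 members had counts in the Fadd line and 4 in the Casp8 line. A count of 0 over a group allows a level of up to 0.0194 CPM in the Fadd line knockout group, 0.0231 CPM in the Fadd line put back group, 0.0241 CPM in the Casp8 line knockout group and 0.0187 CPM in the Casp8 line put back group (3 counts over the group). These limits and the counting intervals below cover counting error only. Fewer cells that express a gene and less RNA in each cell cannot be told apart in such libraries.

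**Figure D1:**
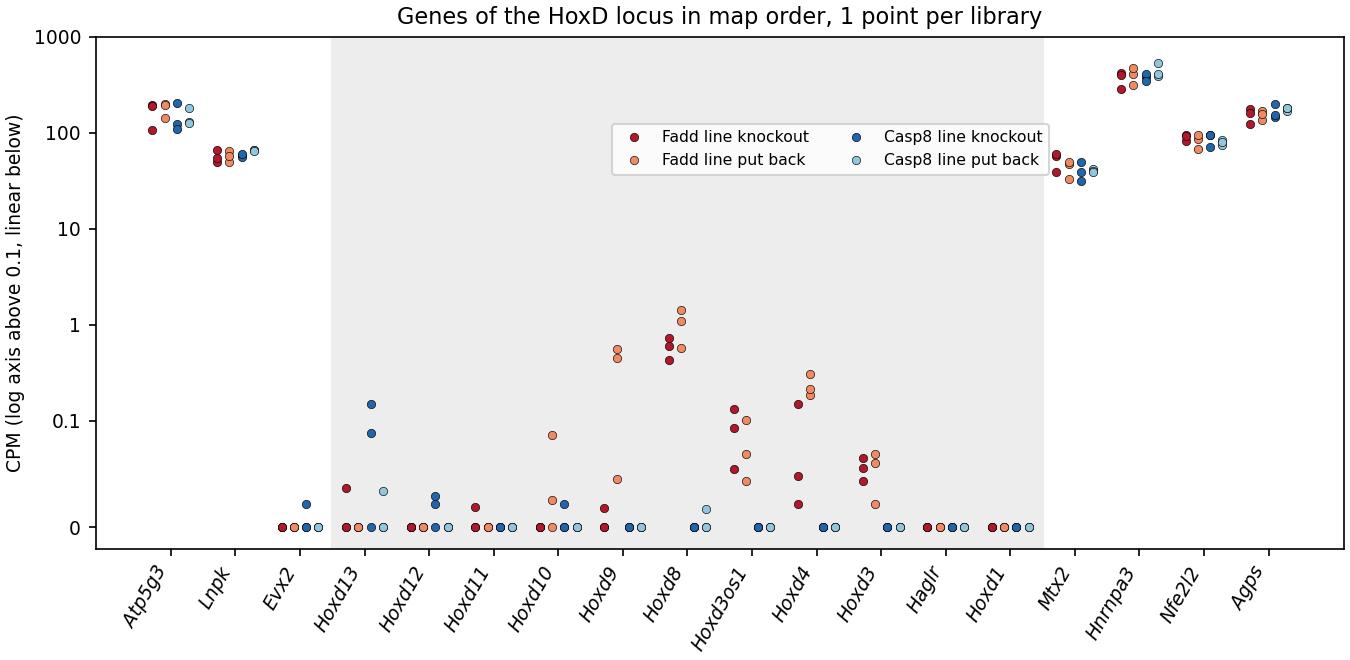
CPM of the 9 HoxD members (shaded, with 2 noncoding genes of the cluster) and of the genes on either side, in map order, 1 point per library and colour per group. The flanking genes Atp5g3, Lnpk, Mtx2, Hnrnpa3, Nfe2l2 and Agps lie well above 10 CPM in all groups, whereas HoxD members stay below 2 CPM and the points above 0 in the middle of the cluster are nearly all from the Fadd line.

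Active genes lay on both sides of the cluster. Lnpk, which encodes the endoplasmic reticulum protein lunapark on the Hoxd13 side, averaged 12.5 ± 1.7 TPM in the Fadd line knockout group, 13.97 ± 2.48 TPM in the Fadd line put back group, 16.0 ± 1.7 TPM in the Casp8 line knockout group and 18.4 ± 0.3 TPM in the Casp8 line put back group (SD, n = 3 each). Mtx2, which encodes the mitochondrial import protein metaxin 2 on the Hoxd1 side, averaged 15.7 to 18.4 TPM across the groups. Of the flanking genes fixed for description, 6 passed the filter on low counts, and 0 were called in any of the 5 comparisons. Their log2 changes ran from -0.30 to 0.33 over all comparisons. The homeobox gene Evx2, which lies between Lnpk and Hoxd13, had 1 count over all 12 libraries together, so the low levels ran past the Hoxd13 border. Gm22975 and Gm13672, which lie between Lnpk and Evx2, had no counts. The pseudogene Mrpl23-ps1, closer to Lnpk, averaged 14.7 to 16.7 TPM across the groups. Haglr, the noncoding RNA that starts beside Hoxd1, and the microRNA gene Mir10b inside the cluster had no counts, although a total RNA library of this kind does not measure mature microRNAs.

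Among the middle members, Hoxd8 encodes a homeodomain factor of the trunk and lies at chr2:74704615-74707933 (ENSMUSG00000027102.4). It had 33, 23 and 33 counts in Fadd line knockout replicates 1 to 3, against 25, 43 and 66 counts in Fadd line put back replicates 1 to 3. It had 0 counts in each Casp8 line knockout library, against 0, 1 and 0 counts in the Casp8 line put back libraries. All 6 Fadd line libraries were thus above all 6 Casp8 line libraries, while the groups within the Fadd line overlapped. In CPM the means were 0.583 ± 0.146 in the Fadd line knockout group and 1.03 ± 0.43 in the Fadd line put back group (SD, n = 3 each), which correspond to 0.177 and 0.313 TPM.

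Hoxd9, at chr2:74697727-74700208 (ENSMUSG00000043342.9), acts with its paralogues in the lumbar spine and the upper limb. It had 1, 0 and 0 counts in the Fadd line knockout libraries, against 2, 18 and 26 counts in the Fadd line put back libraries, and 0 counts in all 6 Casp8 line libraries. The Fadd line put back group was therefore the one group with more than a single count, and its replicate 1 was low. Hoxd10, which acts in hindlimb motor neurons and the limb, had no counts in the Fadd line knockout group and the Casp8 line put back group, 0, 1 and 4 counts in the Fadd line put back libraries, and 1 count in the Casp8 line knockout group.

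On the Hoxd1 side, Hoxd4 and Hoxd3 pattern the upper spine. Hoxd4 had 2.65, 8 and 1 counts in the Fadd line knockout libraries, against 8, 8.58 and 14 counts in the Fadd line put back libraries. Hoxd3 had 2.35, 3 and 3 counts in the Fadd line knockout libraries, against 3, 2.42 and 1 counts in the Fadd line put back libraries. Neither had a count in the Casp8 line. RSEM gives fractions where a read fits several transcripts, and these genes overlap on the same strand. Hoxd4 shares 1542 of its 2948 exonic bases with other genes, and Hoxd3 shares 2613 of its 4191, so the split of reads between them is uncertain. Hoxd3os1, an antisense gene that overlaps exons of both and runs past Hoxd8 on the opposite strand, had 3, 5 and 6 counts in the Fadd line knockout libraries, against 3, 4 and 2 counts in the Fadd line put back libraries, and none in the Casp8 line. Hoxd1, the member with the lowest number, had 0 counts in all 12 libraries.

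At the other end, Hoxd13, the digit and genital member that is mutated in human synpolydactyly, showed a different distribution. It had 0, 4 and 5 counts in the Casp8 line knockout libraries, against 0, 2 and 0 counts in the Casp8 line put back libraries. In the Fadd line it had 0, 2 and 0 counts in the knockout libraries and none in the put back libraries. Its neighbour Hoxd12 had 0, 1 and 1 counts in the Casp8 line knockout libraries and none elsewhere. Hoxd11, which patterns the forearm, had 1 count in 1 Fadd line knockout library. Hoxd13 and Hoxd12 thus made up 86.7% of the HoxD counts of the Casp8 line, while Hoxd8 made up 66.6% of those of the Fadd line. With 15 counts in the Casp8 line, this contrast rests on few reads, and it was not tested.

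**Figure D2:**
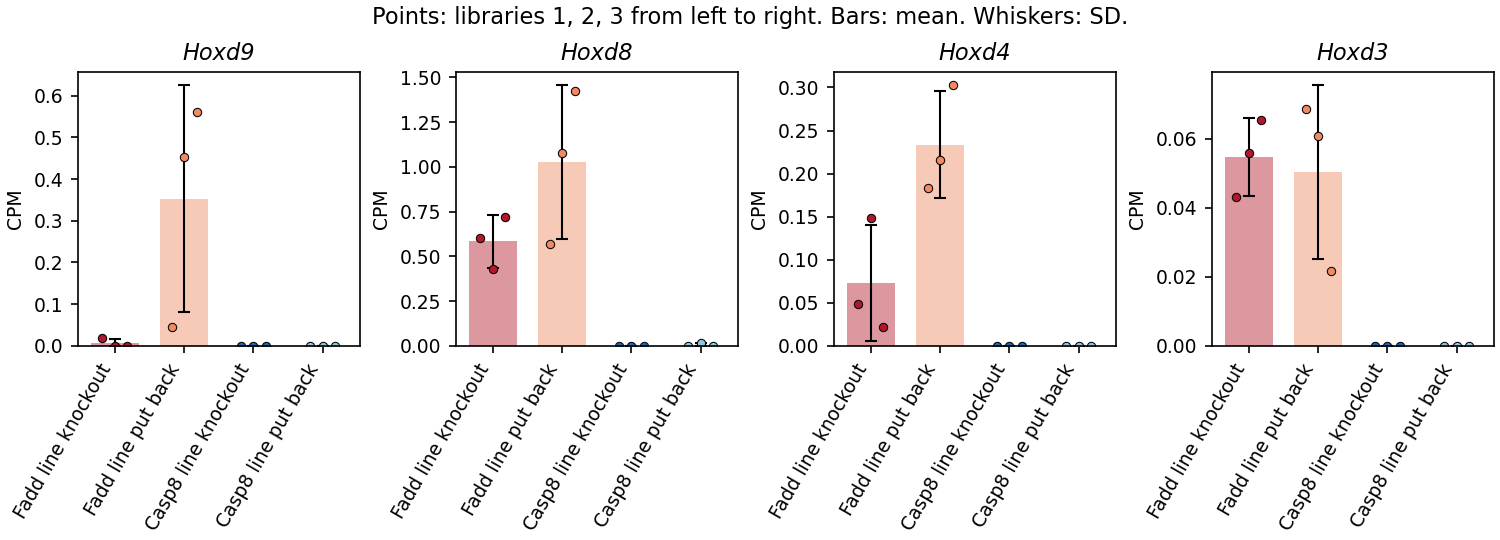
CPM of the 4 members with the most counts in each library (points), with the group mean (bars) and SD (whiskers, n = 3, drawn no lower than 0); each panel has its own axis from 0. Hoxd8 is at 0.43 to 1.43 CPM in all 6 Fadd line libraries, Hoxd9 is above 0.1 CPM in replicates 2 and 3 of the Fadd line put back group alone, and the Casp8 line is at or close to 0 in each panel.

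Knockout and put back cells of the Fadd line were compared to ask whether the return of Fadd changed the cluster. No member was called, where edgeR calls 1.52% of the 16396 genes tested. With the replicate number as a block within each line, edgeR called 444 genes in place of 250, and no member. Hoxd8 was the 1 member that passed the filter on low counts, and it passed through its Fadd line libraries. Its log2 change of knockout over put back was -0.80 (SE 0.55, adjusted p = 0.800, edgeR quasi-likelihood test). The difference had the same sign in the settings tried, from -1.11 to -0.44, and passed the threshold in none of them. The sum over the 9 members was 0.233 ± 0.0252 TPM in the Fadd line knockout group and 0.517 ± 0.246 TPM in the Fadd line put back group (SD, n = 3 each). The knockout group held 0.433 times the put back group's summed CPM. Put back replicate 1, with 0.26 TPM, equalled the highest of the knockout libraries (0.21, 0.26 and 0.23 TPM), whereas put back replicates 2 and 3 had 0.54 and 0.75 TPM.

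Of the members under the filter, Hoxd9 and Hoxd4 were lower in every Fadd line knockout library than in every put back library in CPM, 2 of 9 members where 6.32% of 27530 genes with counts did so. The split was narrow: for Hoxd4 knockout replicate 2 and put back replicate 1 both had 8 counts. For Hoxd9 knockout replicate 1 had 1 count and put back replicate 1 had 2. The pooled ratio of knockout over put back was 0.0183 for Hoxd9 (95% counting interval 0.000453 to 0.107) and 0.321 for Hoxd4 (0.152 to 0.652). For Hoxd3 it was 1.09 (0.341 to 3.92). Tested with edgeR without the filter, Hoxd9 had a log2 change of -5.29 (SE 1.34, adjusted p = 0.129), and with DESeq2 one of -5.65 (adjusted p = 0.140). Hoxd9 was therefore not called, and without the filter edgeR calls 1.13% of genes in this comparison. Hoxd4 had an adjusted p of 0.884 in edgeR without the filter.

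In the Casp8 line no member was called either, where 0.0061% of tested genes were. Hoxd8 was the 1 member tested, with 0 and 1 counts in these groups, so this outcome carries no information on the cluster. Hoxd13 had 9 counts in the knockout group and 2 in the put back group, a pooled ratio of 5.82 (95% counting interval 1.20 to 55.3), and the libraries of the groups overlapped. The change of the Fadd line minus that of the Casp8 line was called for no member, where 0.842% of genes were. Hoxd8 had 0 and 1 counts in the Casp8 line groups, so this difference is not interpretable for it.

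Between lines the picture was different. Hoxd8 was at least 23.9-fold higher in Fadd line knockout cells than in Casp8 line knockout cells (against 3 counts over the group), with an adjusted p of 0.00224 in edgeR's quasi-likelihood test. In the put back cells the Casp8 line had a single count, and the ratio of the Fadd line over the Casp8 line was 166 (95% counting interval 29.3 to 6598), with an adjusted p of 0.00327 in the same edgeR test. It was the 1 member called in each comparison, where edgeR calls 10.5% of genes between the knockout groups (3.46% higher in the Fadd line) and 6.34% between the put back groups (2.93% higher in the Fadd line). Hoxd8 passed the filter only through the libraries where it was high, so these calls, and their adjusted p of 2.73e-06 to 0.0210 over the settings tried, lend no support beyond the counts themselves and say nothing about the cluster as a whole.

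Summed over the 9 members, CPM in the Fadd line was 7.14 times that of the Casp8 line between the knockout groups and 101 times between the put back groups. Both rest on few counts of the Casp8 line, with 0, 6 and 6 HoxD counts in its knockout libraries and 0, 3 and 0 in its put back libraries. The ratio between the knockout groups was 4.76 without Casp8 line knockout replicate 1 and 11.1 without replicate 3 of that group. The ratio between the put back groups was 67.3 without Casp8 line put back replicate 1 or 3, and it cannot be given without replicate 2. Marker lists also differed between the lines. Summed fibroblast markers lay at 1136 to 1870 TPM in the Fadd line libraries and 2487 to 3688 TPM in the Casp8 line libraries. Summed neural markers lay at 18.3 to 27.8 TPM in the Fadd line libraries and 35.9 to 109.6 TPM in the Casp8 line libraries, with 3 of 7 and 4 of 7 genes at 1 TPM or more and with Sox10 and Snap25 at 0 counts in all groups. The part of either in the HoxD difference was not tested.

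The members under the filter pointed the same way in the middle of the cluster. Since Hoxd4 and Hoxd3 share exonic bases, they are not separate readings. Hoxd4 was at least 3.13-fold higher in Fadd line knockout cells than in Casp8 line knockout cells and at least 12.6-fold higher in Fadd line put back cells than in Casp8 line put back cells. Hoxd3 was at least 2.24-fold and at least 2.65-fold higher in those comparisons, on 8.35 and 6.42 counts over the Fadd line groups. Hoxd9 was at least 18.98-fold higher between the put back groups, and no fold can be given between the knockout groups. In edgeR without the filter, Hoxd9 (adjusted p = 0.0297) and Hoxd4 (adjusted p = 0.0219) joined Hoxd8 between the put back groups, where 4.07% of genes were called, and Hoxd4 missed the threshold between the knockout groups (adjusted p = 0.0964), where 6.69% were called. In CPM, 3 of 9 members (Hoxd8, Hoxd4 and Hoxd3) did not overlap between the knockout groups, and 4 of 9 (those and Hoxd9) did not overlap between the put back groups, all higher in the Fadd line. Of all genes with counts, 20.1% and 18.6% did not overlap in these comparisons. Those shares count both directions, and the 9 members include Hoxd1, which had no counts. Apart from Hoxd8, the split was mostly narrow, against 0 counts in every Casp8 line library. Hoxd4 had 1 count in Fadd line knockout replicate 3. In the Fadd line put back group, Hoxd3 had 1 count in replicate 3 and Hoxd9 had 2 in replicate 1. Hoxd13 went the other way between the knockout groups, with 2 counts in the Fadd line and 9 in the Casp8 line, a pooled ratio of 0.179 (95% counting interval 0.0188 to 0.865), but its libraries overlapped.

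**Figure D3:**
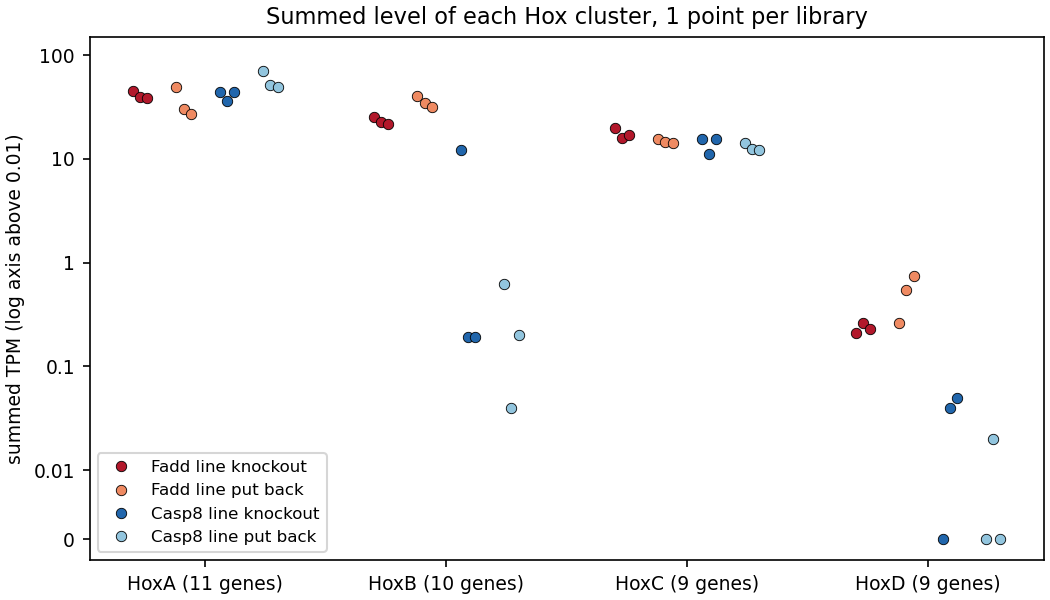
Summed TPM of the genes of each Hox cluster, 1 point per library, on an axis that is logarithmic above 0.01. HoxD is the lowest cluster in every group: its libraries lie at 0.21 to 0.75 TPM in the Fadd line and at 0 to 0.05 TPM in the Casp8 line, while HoxA and HoxC lie above 10 TPM in all 12 libraries.

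HoxA and HoxC were not silent in any group, and HoxB was not silent in the Fadd line. HoxA summed to 41.1, 35.3, 41.5 and 57.1 TPM and HoxC to 17.4, 14.6, 14.05 and 12.9 TPM in the Fadd line knockout, Fadd line put back, Casp8 line knockout and Casp8 line put back groups. HoxD therefore gave 0.233 to 0.331% of all Hox TPM in the Fadd line knockout libraries and 0.247 to 1.02% in the Fadd line put back libraries. Its share was 0 to 0.0846% in the Casp8 line knockout libraries and 0 to 0.0316% in the Casp8 line put back libraries. HoxB differed between the lines as HoxD did, at a higher level: it summed to 23.3 TPM in the Fadd line knockout group and 4.18 TPM in the Casp8 line knockout group, and to 35.8 TPM in the Fadd line put back group and 0.287 TPM in the Casp8 line put back group. That 4.18 TPM rested on replicate 1, with 12.2 TPM, against 0.19 TPM in both replicates 2 and 3 of that group, and this replicate had no HoxD count. Of the 9 HoxB genes tested, 8 were called higher in the Fadd line between the put back groups and 0 between the knockout groups in edgeR, against 9 and 9 in limma-voom. With the replicate block within each line, 5 HoxB genes had a lower change of knockout over put back in the Fadd line. They were Hoxb4, Hoxb5, Hoxb7, Hoxb9 and Hoxb13 (edgeR adjusted p = 0.00461 to 0.0478 against the change in the Casp8 line). Hoxb9 was also called higher in Casp8 line knockout cells than in Casp8 line put back cells (edgeR adjusted p = 0.0343 with the block). Without the block, edgeR called none of these. Of 16396 genes, the fit with the block called 239 for the difference of changes and 6 in the Casp8 line. HoxB held 1599, 26 and 19 counts in Casp8 line knockout replicates 1 to 3. It held 102, 5 and 29 in the put back replicates, so most of its counts in that line were in replicate 1.

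**Figure D4:**
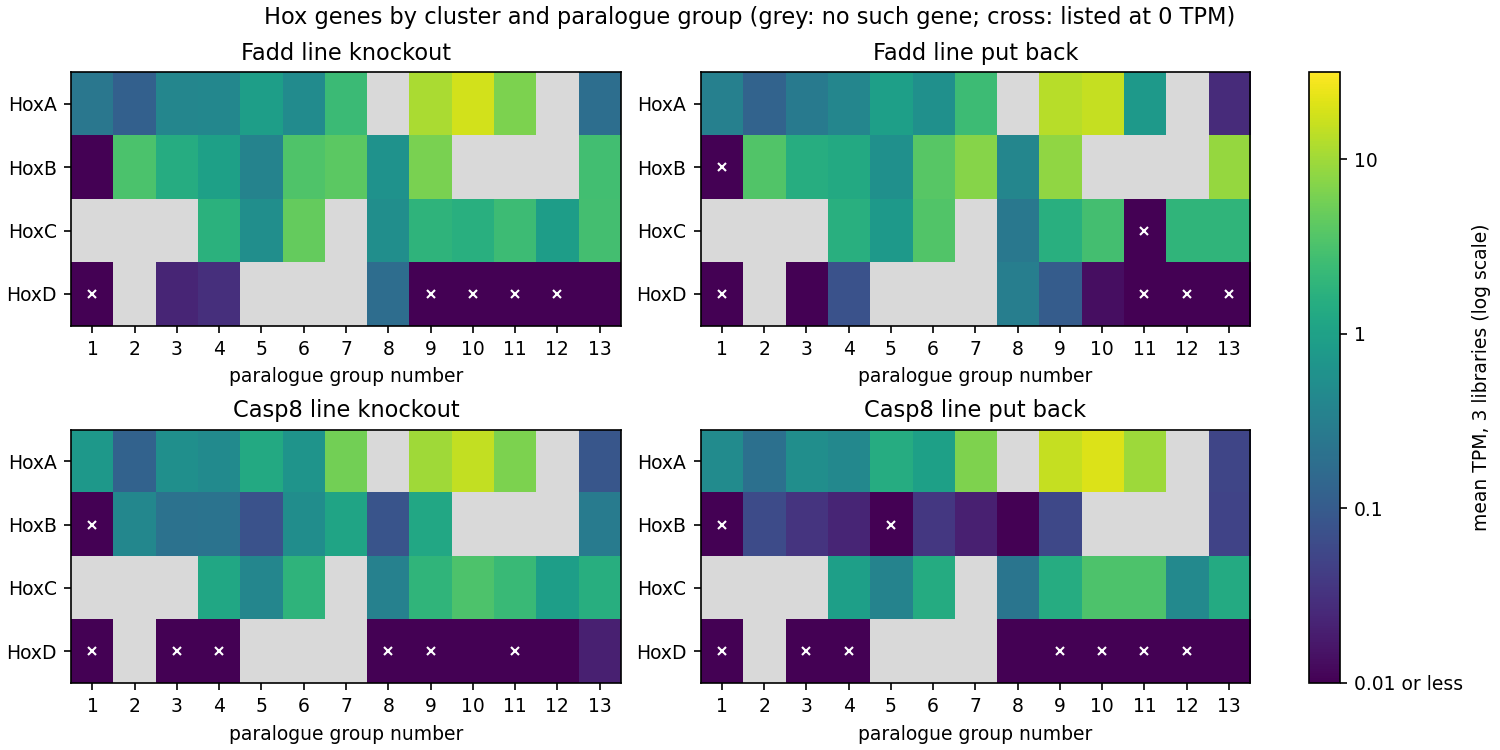
Mean TPM (3 libraries, colour on a log scale) of each Hox gene by cluster and paralogue number in the 4 groups; grey marks numbers with no gene in that cluster and crosses a listed mean of 0 TPM. The HoxD line of each panel is dark, with Hoxd8 the brightest member in the Fadd line at 0.177 and 0.313 TPM, whereas Hoxa9 and Hoxa10 are above 10 TPM in all groups.

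Set beside its paralogues in TPM, Hoxd8 was of the same order as Hoxc8 and Hoxb8 in the Fadd line. In the Casp8 line it was below Hoxc8, while Hoxb8 was also low there. Hoxd8 averaged 0.177 TPM in the Fadd line knockout group and 0.313 TPM in the Fadd line put back group, beside 0.543 and 0.250 TPM of Hoxc8 and 0.603 and 0.410 TPM of Hoxb8 in those groups. In the Casp8 line, where Hoxd8 had 0 and 1 counts, Hoxc8 averaged 0.347 TPM in the knockout group and 0.227 TPM in the put back group. Hoxb8 averaged 0.08 and 0.00333 TPM there, and 0 in both without the first replicates. Hoxa9, with 11.4, 13.47, 10.03 and 15.5 TPM in the 4 groups in the order above, and Hoxa10, with 17.96, 15.8, 15.2 and 20.9 TPM, were the strongest Hox genes, while Hoxd9 and Hoxd10 were at or near 0. The paralogues of Hoxd13 differed among themselves. Hoxc13 averaged 2.86, 1.96, 1.59 and 1.40 TPM in the 4 groups in that order, and 0.765 and 0.71 TPM in the Casp8 line knockout and put back groups without their first replicates. Hoxb13 averaged 2.74 and 8.88 TPM in the Fadd line knockout and put back groups and 0.29 and 0.05 TPM in the Casp8 line knockout and put back groups, where it was 0.005 TPM in both without the first replicates. Hoxa13 was low throughout, at 0.0267 to 0.187 TPM. Of the other 30 Hox genes, 19 averaged at least 1 TPM in some group, against 0 of the 9 HoxD members.

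The paralogues of Hoxd11 differed between knockout and put back cells of the Fadd line. Hoxa11 averaged 6.53 ± 0.50 TPM in the Fadd line knockout group and 0.770 ± 0.214 TPM in the Fadd line put back group (SD, n = 3 each; log2 change 3.22, edgeR adjusted p = 5.78e-05). Hoxc11 averaged 2.53 ± 0.54 TPM in the Fadd line knockout group and had no counts in the Fadd line put back group (edgeR adjusted p = 1.35e-05). Hoxd11 had 1 and 0 counts in these groups, so no change of it could be measured. The Hoxd13 paralogue Hoxa13, itself low, averaged 0.187 ± 0.103 TPM in the Fadd line knockout group and 0.0267 ± 0.0153 TPM in the Fadd line put back group (SD, n = 3 each; log2 change 2.66, edgeR adjusted p = 0.0498). That call was lost in 17 of 21 settings, among them without any 1 library of the Fadd line, with an edgeR adjusted p of up to 0.245.

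Transcripts of the cofactors that Hox proteins bind DNA with were detected. All 9 TALE cofactors (Pbx, Meis and Pknox genes) passed the filter, and edgeR called 0 between knockout and put back in either line. DESeq2 called 1 cofactor lower in Fadd line knockout than put back cells, and 1 higher in Casp8 line knockout than put back cells. Meis1 was lower in the Fadd line, at 1.03 ± 0.28 CPM in the Fadd line knockout group against 5.36 ± 0.82 CPM in the Casp8 line knockout group (log2 change -2.44, edgeR adjusted p = 0.000387), and at 2.11 ± 0.42 CPM in the Fadd line put back group against 5.12 ± 0.21 CPM in the Casp8 line put back group (log2 change -1.38, edgeR adjusted p = 0.0132). Pknox2 was higher in Fadd line put back cells, with 9.60 ± 3.55 CPM against 2.49 ± 0.65 CPM in Casp8 line put back cells (log2 change 1.85, edgeR adjusted p = 0.0157). Meis1 lost its call between put back groups without Fadd line put back replicate 2 or 3 or Casp8 line put back replicate 2 (edgeR adjusted p of up to 0.0632), and Pknox2 in 5 of 21 settings, without Fadd line put back replicate 1 or 2 or Casp8 line put back replicate 2 or 3 and without both first replicates of the Fadd line (up to 0.0839). The median log2 change of the 9 genes was 0.04 between knockout groups and 0.36 between put back groups, against -0.0043 and -0.0092 over all genes.

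Of 28 Polycomb genes, all tested, 0 were called between knockout and put back in either line. Kdm2b, which brings a Polycomb complex to CpG islands, was called between the knockout groups, at 78.3 ± 9.3 CPM in the Fadd line and 52.3 ± 2.0 CPM in the Casp8 line (log2 change 0.52, edgeR adjusted p = 0.0314), a call lost in 11 of 21 settings, among them without any 1 Fadd line knockout library (edgeR adjusted p of up to 0.118). Of 14 Trithorax and H3K27 demethylase genes, 13 were tested and 0 were called in any of the 5 comparisons. With the replicate block within each line, the H3K27 demethylase gene Kdm6a was called between knockout and put back of the Fadd line, at 27.2 ± 6.8 CPM in the knockout group against 46.5 ± 13.4 CPM in the put back group (log2 change -0.74, edgeR adjusted p = 0.0115). Among 8 genes of cohesin and CTCF, which form the loops that contact Hox clusters, the cohesin subunit gene Rad21 was called. It stood at 946 ± 92 CPM in the Fadd line knockout group against 420 ± 45 CPM in the Fadd line put back group (log2 change 1.20, edgeR adjusted p = 0.00127), and at 428 ± 25 CPM in the Casp8 line knockout group against 373 ± 27 CPM in the Casp8 line put back group. The difference between these changes was 1.01 on the log2 scale (edgeR adjusted p = 0.0380), a call lost in 13 of 20 settings, among them without any 1 Fadd line library (edgeR adjusted p of up to 0.144).

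Of 19 limb and retinoic acid regulators, 11 were tested, and edgeR called 0 between knockout and put back in either line. DESeq2 called 2 regulators of the list lower in Fadd line knockout than put back cells. The replicate block within each line called 2 of the 11 in the Fadd line. The retinoic acid receptor gene Rarb stood at 0.161 ± 0.106 CPM in the Fadd line knockout group against 3.231 ± 1.499 CPM in the Fadd line put back group (log2 change -4.33, edgeR adjusted p = 0.00674 with the block). The limb gene Tbx3 stood at 17.1 ± 4.4 CPM against 8.06 ± 1.59 CPM in the same groups (log2 change 1.09, edgeR adjusted p = 0.0463 with the block). Between the knockout groups, Rarb was lower in the Fadd line, at 0.161 ± 0.106 CPM against 9.59 ± 7.37 CPM in the Casp8 line (log2 change -5.92, edgeR adjusted p = 0.00389). The hindlimb gene Tbx4 had no counts in the Fadd line knockout group and 2.92 ± 2.51 CPM in the Casp8 line knockout group (edgeR adjusted p = 0.0278). The retinoic acid degrading enzyme gene Cyp26b1 averaged 0.778 ± 0.210 CPM in Fadd line put back cells and 6.08 ± 5.76 CPM in Casp8 line put back cells (log2 change -3.01, edgeR adjusted p = 0.0328). The spread of Rarb, Tbx4 and Cyp26b1 in the Casp8 line was nearly as large as their means, and limma-voom called 0 of them. Tbx4 also lost its call without any 1 Fadd line knockout library, without both first replicates of the Fadd line, and without Casp8 line knockout replicate 2 or 3 (edgeR adjusted p of up to 0.0811). Cyp26b1 was at 2.78 CPM in Casp8 line put back cells without replicate 1, and its call was lost in 9 of 21 settings, among them without any 1 Fadd line put back library (edgeR adjusted p of up to 0.123).

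The genes with the pattern most like Hoxd8 over the 12 libraries, by Pearson correlation of log2 CPM among 12811 genes, were Ptges (r = 0.98), Zic4 (r = 0.97) and BC024063 (r = 0.97), and 45 genes had r over 0.9. Ptges, a prostaglandin E synthase gene, averaged 3.95 ± 1.17 CPM in the Fadd line knockout group, 16.5 ± 2.2 CPM in the Fadd line put back group, 0.0246 ± 0.0226 CPM in the Casp8 line knockout group and 0.0197 ± 0.0196 CPM in the Casp8 line put back group (SD, n = 3 each). The coefficients describe the gap between the lines: within the 6 Fadd line libraries r was 0.75 for Ptges, 0.01 for Zic4 and -0.56 for BC024063.

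Short motifs were searched on both strands of the 250 upstream bases. The CCAAT box (CCAAT) was found in 7 of the 9 members, all but Hoxd11 and Hoxd9, and in 33.8% of all promoters. The TATA box (TATAAA) was found for Hoxd13 and Hoxd4 and in 12.4% of all promoters. A HOX-PBX site (TGATTNAT, 2.82% of all promoters) and a HOX core (TAATTA, 4.84%) were found for Hoxd11 alone. No one of these motifs contains another. Hoxd8 and Hoxd1, at opposite ends of the range of counts, both held the CCAAT box and none of the others.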

How the data were processed

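Per the labels' protocols, TruSeq stranded total RNA libraries were sequenced in pairs of reads, trimmed with Cutadapt in Trim Galore, aligned with STAR to mm10 with GENCODE M22 and counted with RSEM; the submitters' processing notes give Trim Galore 0.5.0 and STAR 2.7.5a. The deposited files hold expected counts per gene without normalization, of which 96.05% of those above 0 are whole, and TPM rounded to 2 decimals by the authors. The 92 spike-in entries had 0 counts and were left out. Expected counts were rounded and tested with edgeR 4.0.16 (R 4.3.3; TMM, filterByExpr with a minimum count of 10, quasi-likelihood, 1 mean per group over all 12 libraries, 16396 genes). P-values were adjusted by Benjamini-Hochberg across all genes tested, with calls under 0.05. CPM uses the summed counts of a library, and TPM is used to compare genes. DESeq2 1.42.0 and limma-voom (limma 3.58.1) were alternatives. The edgeR test was tested on simulated counts with known changes between lines. Gene positions are from GENCODE M21 on mm10, which matched 55094 gene IDs; promoters are from RefSeq on GRCm38.p6. Same-numbered replicates deviated together in the Fadd line (correlations 0.72, 0.57 and 0.75, against -0.73 to 0.23 for unlike numbers). In the Casp8 line this was not clear (0.20, 0.29 and 0.11, against -0.27 to 0.19 for unlike numbers). Between lines the correlations of same-numbered replicates were 0.33, 0.20 and 0.26 for the put back groups and -0.31, 0.02 and -0.41 for the knockout groups. The numbers were used as pairs within each line in an alternative fit, and the main edgeR fit leaves the pairing out. The members and gene lists were chosen with earlier results of these data known. Named genes outside the cluster were the called members of those lists, the paralogues and the 3 genes most like Hoxd8. Protein sequences were not used here.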

Additional observations from a re-analysis of the deposited data

Results flagged for a closer look

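The change of knockout over put back differed between the Fadd line and the Casp8 line, by a test of that difference, for 2 paralogues of Hoxd11 and for a cohesin gene. Hoxa11 averaged 6.53 ± 0.50 TPM in Fadd line knockout cells and 0.770 ± 0.214 TPM in Fadd line put back cells, against 6.55 ± 0.22 TPM in Casp8 line knockout cells and 9.82 ± 2.17 TPM in Casp8 line put back cells (SD, n = 3 each). The difference of the log2 changes was 3.79 (edgeR adjusted p = 0.000210). Hoxc11 averaged 2.53 ± 0.54 TPM in Fadd line knockout cells and had no counts in Fadd line put back cells, against 2.37 ± 0.43 TPM in Casp8 line knockout cells and 3.32 ± 0.10 TPM in Casp8 line put back cells. Its fitted difference of 12.13 on the log2 scale (edgeR adjusted p = 4.83e-05) depends on the prior count because 1 group is at 0, and it is no estimate of size. Rad21 differed by 1.01 on the log2 scale (edgeR adjusted p = 0.0380), a call lost in 13 of 20 settings. With the replicate block within each line, 5 HoxB genes (Hoxb4, Hoxb5, Hoxb7, Hoxb9 and Hoxb13) were called in this comparison as well. That fit called 239 of 16396 genes. Most HoxB counts of the Casp8 line were in replicate 1. Its knockout replicates 1 to 3 held 1599, 26 and 19, and its put back replicates 102, 5 and 29. The Fadd line put back group was the low one of the 4 for both paralogues, while the Fadd line knockout group was the high one for Rad21.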

How the results depend on the processing

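Between the Fadd line and Casp8 line put back groups, the number of members called was 1 in edgeR, against 3 in DESeq2, 3 in edgeR with no filter on low counts, 3 without both first replicates of the Casp8 line, and 1 to 3 with 1 library left out. The added members were Hoxd4 (called in 10 settings) and Hoxd9 (in 5), which are tested when the filter loosens. In the other 4 comparisons the number of members called was the same in every alternative. For the Casp8 line this carries no weight, since its knockout and put back groups held 12 and 3 HoxD counts. With the replicate block within each line, Hoxd8 had a log2 change of -0.73 for Fadd line knockout over put back (edgeR adjusted p = 0.504), and the block changed no member's call. Over all alternatives the genes called ran from 103 to 674 between Fadd line knockout and put back (250 as reported), from 0 to 143 in the Casp8 line (1), from 90 to 416 for the difference of those changes (138), from 829 to 3331 between knockout groups (1718) and from 301 to 3118 between put back groups (1039). The replicate block within each line gave 444, 6, 239, 3331 and 2780 in this order (the spread between replicates then drops out of the comparisons between lines), DESeq2 674, 143, 416, 2768 and 1963, and the compared groups alone 1046 between knockout groups. Cluster ratios taken from TPM in place of CPM were 0.452, 7.78 and 77.5, against 0.433, 7.14 and 101. With 1 library left out, an alternative chosen after seeing the data, the CPM ratios ran from 0.348 to 0.545, from 4.76 to 11.1 and from 67.3 to 126, and the last cannot be given without Casp8 line put back replicate 2, which holds all 3 counts of its group. Calls of named genes outside the cluster that did not hold in every setting stand beside their values. Those of Hoxa11 and Hoxc11, of Rad21 between Fadd line knockout and put back and of Meis1 between knockout groups held in every setting run. Depth limits all members, Hoxd8 in the Fadd line least: a group with no counts could hold up to 0.0241 CPM.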
